A study of Homo sapiens with 18 samples.

Results

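Of the 16715 genes listed in at least 1 of the expression tables of MCF10A and hTERT RPE-1 cells, 10 were followed here by their symbol. They are the D-type cyclins CCND1 and CCND3, their kinases CDK4 and CDK6, the E-type cyclins CCNE1 and CCNE2 with their kinase CDK2, the kinase inhibitor CDKN1B (p27), the retinoblastoma protein gene RB1 and its relative RBL1 (p107). All 10 were listed in both lines, and all 10 passed the filter on low values in both, so none was lost to it. The rule finds them by symbol alone, and the list was drawn up with earlier results of these data known.

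Cyclins are the regulatory subunits of cyclin-dependent kinases. During G1, D-type cyclins activate CDK4 and CDK6, which phosphorylate RB1 and its relatives, and E-type cyclins then activate CDK2 as cells enter S phase. RB family proteins bind E2F transcription factors and hold back the genes of DNA replication until they are phosphorylated, and CDKN1B binds and inhibits cyclin E-CDK2 complexes.

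The study used MCF10A, a line of non-tumorigenic epithelial cells from human breast, and hTERT RPE-1, a retinal pigment epithelial line immortalised with telomerase. Cells received 1 of 3 small RNAs at 30 nM for 72 h: siNT, a non-targeting siRNA used as the negative control, or a mimic of hsa-miR-28-5p or of hsa-miR-708-5p. The mimics, named miR-28 and miR-708 by the labels, are siblings of the MIR-28 family. PolyA+ RNA was sequenced in biological triplicate, as 9 libraries per line and 18 in all. Both lines are single immortalised lines in culture, and every library, controls included, received a transfected small RNA, with no untransfected group among the 18.

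The question put to these 10 genes was whether each mimic shifted them against siNT, whether the siblings differed from each other, and whether the lines differed. Per the study, the siblings carry the same seed, bases 2 to 8 of the microRNA, which pairs with a target. The mature sequence of hsa-miR-708-5p (RefSeq, GRCh38.p14, chr11:79402077-79402099, minus strand) is shown with its seed in capitals because the letters searched for below pair with it.
hsa-miR-708-5p: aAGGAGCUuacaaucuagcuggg
The 3′ UTRs of the 10 genes (GENCODE 44 canonical transcripts, hg38) were searched on the transcript strand for GCTCCT, the match to bases 2 to 7. This 6mer also lies inside both 7mers that were counted. One is AGCTCCT, which pairs with the whole seed, and the other is the 6mer followed by A. CCND3 was the only one of the 10 with a 7mer, and its 3 matches, all in exon 5, are printed with the match in capitals because CCND3 also fell with each mimic in each line.
CCND3 site 1, chr6:41935717-41935746, minus strand: gtggctagtcaAGCTCCTcctccctgcatc
CCND3 site 2, chr6:41935452-41935481, minus strand: tagtctagatgGCTCCTctcagtactttgg
CCND3 site 3, chr6:41935404-41935433, minus strand: tgctgacagctGCTCCTAgagggaggggcc
Site 1 matches the whole seed, site 3 is the 6mer followed by A, and site 2 is a 6mer. Among genes tested, 18.7% of the 3′ UTRs in either line held a 7mer, and 13.4% did so among the 1772 with a 3′ UTR of similar length to the 988 nt of CCND3. CCNE2, CDK6 and RBL1 each held 1 match of 6 bases, compared with 35.7% of tested genes in MCF10A and 35.9% in hTERT RPE-1 that held at least 1. In CDK6, whose 3′ UTR runs to 10219 nt, the 6mer is not informative by its presence alone, since 87.2% of 3′ UTRs of like length held it. The remaining 6 genes, CCNE1 among them, held no match in this window. A match is a description of the letters and does not show that a site is used.

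Depth, as estimated from the steps between low values, was 19.4–31.7 M reads on genes per MCF10A library and 23.8–40.3 M per hTERT RPE-1 library. Values are called scaled counts here, that is, read counts estimated per gene after division by the library's size factor. RPS28, the transcript the study followed, was lower with each mimic in each line (log2 fold changes from -4.47 to -2.65). All 7 basal mammary markers were listed in MCF10A, and their summed value was lower with the mimics (85161–120826) than with siNT (165966–179359). In hTERT RPE-1 cells KRT5, KRT14, KRT17 and CDH1 were not listed, nor was RPE65, a defining marker of retinal pigment epithelium, although MITF and OTX2 were. The other 3 basal markers, TP63, ITGB4 and LAMB3, were listed in hTERT RPE-1 and summed to 1007–1307 with siNT and 1265–1524 with the mimics. The summed value of that line's retinal pigment epithelium markers was 2941–4290 with siNT, 1945–2065 with miR-28 and 2101–2265 with miR-708. Of the 6 listed there, only 4 were above a floor of 3 reads in all libraries of each group. Of the 7 retinal markers, 4 were listed in MCF10A, where they summed to 827–1141 with siNT, 1398–1676 with miR-28 and 1118–1512 with miR-708. In MCF10A 3 of them were above that floor with siNT and with miR-28, and 4 with miR-708. For the markers of each line's own tissue, no mimic sum overlapped siNT. The part of these shifts in the results was not tested. Of the 4 immune markers, PTPRC and CD3E were not listed in MCF10A. CD14 and LYZ were listed there and summed to 248–491 with siNT, 190–221 with miR-28 and 279–325 with miR-708. Only 1 of these 2 was above the floor in all libraries with siNT and with miR-28, and both were with miR-708. Only PTPRC was listed in hTERT RPE-1, at 11.4 or less. One library stands apart: in hTERT RPE-1 siNT replicate 3 the pigment genes PMEL and TYRP1 had scaled counts of 544 and 561, compared with at most 13.8 in any other library of that line. In hTERT RPE-1 miR-28 replicate 1, ribosomal RNA took 15.1% of the values against 4.23–7.20% elsewhere in that line.

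With miR-28 in MCF10A, CCND3 and CCNE1 fell and CDKN1B rose, 3 of the 10 genes, where 22.7% of all 14726 genes tested passed the threshold, an adjusted p (Benjamini-Hochberg, from limma) under 0.05. With miR-708 in MCF10A, CCND3 and CCNE1 fell and CDKN1B and CDK2 rose, 4 of 10, where 32.8% of all genes passed. In hTERT RPE-1 cells, CCND3 and CCNE1 fell with miR-28, and CDK4, CDK6, RB1 and RBL1 rose, 6 of 10 against 46.8% of 14527 genes. With miR-708 in that line the same 6 changed in the same directions and CDK2 rose as well, 7 of 10 against 62.1% of genes. By direction, 10.7% of all genes were called higher and 12% lower with miR-28 in MCF10A, 15.5% and 17.3% with miR-708, 23.3% and 23.5% with miR-28 in hTERT RPE-1, and 30.9% and 31.2% with miR-708. The mimic libraries did not overlap siNT for 5 and 7 of the 10 genes in MCF10A, where 41.8% and 46.6% of all genes did not, and for 7 and 8 in hTERT RPE-1, where 54.4% and 69.2% did not. These shares are near those of all genes, so the number of changed genes does not set the 10 apart. The median log2 fold change over the 10 in MCF10A was 0.08 with miR-28 and 0.04 with miR-708, and in hTERT RPE-1 it was 0.29 and 0.47, compared with medians over all genes within 0.01 of 0. The 2 mimics of a line were set against the same 3 siNT libraries, so their changes are not independent of each other. In bulk RNA, a change in the share of cells in a cycle phase and a change in RNA per cell cannot be told apart.

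The number of genes called in MCF10A depended on the fit. Replicate numbers were taken to pair the siNT and mimic libraries of this line, although the labels do not say what a number marks. With the replicate number as a block, 5 of the 10 were called with miR-28 and 7 with miR-708, when 4408 and 5818 of all 14726 genes were called. Leaving out siNT replicate 8, miR-28 replicate 8 or miR-28 replicate 9 left 1 of 10 with miR-28. The calls over all genes fell as well, from 3347 to 2113, 1949 and 2193. In hTERT RPE-1, 6 were called with miR-28 when either siNT replicate 3 or miR-28 replicate 1 was left out, and with miR-708 the counts were 8 and 7. Over all genes the calls were 6572 and 6561 with miR-28, and 8661 and 9216 with miR-708. Scaling by library size moved the median of all genes up, in MCF10A by 0.11 with miR-28 and 0.14 with miR-708, and in hTERT RPE-1 by 0.085 and 0.32, and fold changes under it are to be read relative to those shifts.

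**Figure D1:**
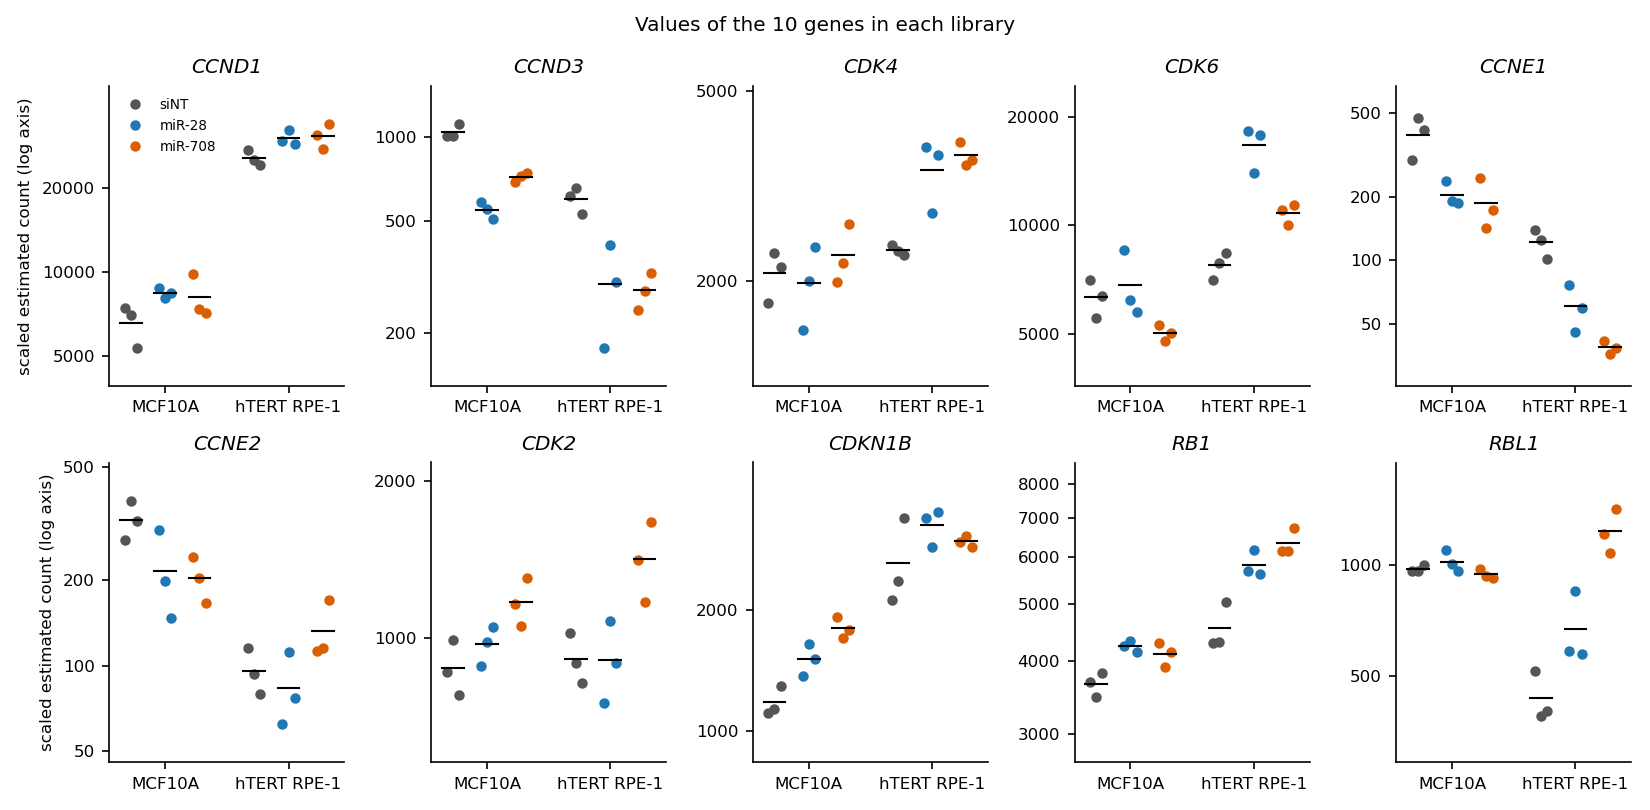
Scaled counts of the 10 genes (log axis, a separate range for each gene) in each library, in MCF10A on the left and hTERT RPE-1 on the right of each panel. Points are the 3 libraries of a group and bars are group means. CCND3 and CCNE1 lie below all siNT libraries with both mimics in both lines, while CDK6 and RBL1 lie above them only in hTERT RPE-1.

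CCND1 (chr11:69641156-69654474, plus strand) encodes cyclin D1 and was the most abundant of the 10 per kb of transcript in every group. In MCF10A its scaled counts were 7379.9, 6965 and 5334 with siNT, 8744, 8041 and 8401 with miR-28, and 9835, 7326 and 7128 with miR-708. All 3 miR-28 libraries lay above siNT, but the miR-708 libraries overlapped it. The log2 fold changes of 0.37 (95% confidence interval 0.05 to 0.69, adjusted p = 0.0922) and 0.30 (-0.02 to 0.62, adjusted p = 0.138) did not pass the threshold (limma). With the replicate block they did (adjusted p = 0.0261 and 0.0489, limma), as did the first without miR-708 replicate 7, a library of neither group, which enters only through the shared spread (adjusted p = 0.0405, limma). They also passed under library size scaling, at 0.48 and 0.45.

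In hTERT RPE-1, CCND1 had scaled counts of 27194, 25177 and 24159 with siNT, 29353, 32302 and 28575 with miR-28, and 30832, 27495 and 33757 with miR-708. Every mimic library was above every siNT library, by small margins. The log2 fold changes were 0.24 (-0.01 to 0.49, adjusted p = 0.106, limma) and 0.26 (0.02 to 0.51, adjusted p = 0.0617, limma). Leaving out miR-708 replicate 2 brought the second to 0.34 and past the threshold (adjusted p = 0.0313, limma). Under quantile scaling, which forces the same distribution on every library, the changes were 0.47 and 0.81, and both passed. Under library size scaling they were 0.32 and 0.58, and both passed too.

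CCND3 (chr6:41934934-42050357, minus strand) encodes cyclin D3. Its scaled counts in MCF10A were 1009, 1007 and 1113 with siNT, 586, 554 and 509.6 with miR-28, and 691, 728 and 746 with miR-708. The 3 groups were fully separated, with miR-28 lowest. CCND3 fell by 0.92 on the log2 scale with miR-28 (standard error 0.10, adjusted p = 0.000322, limma) and by 0.53 with miR-708 (standard error 0.10, adjusted p = 0.00262, limma), so that it decreased by 47.3% with the former and decreased by 30.8% with the latter. Neither call was lost under any alternative tried.

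In hTERT RPE-1, CCND3 was measured at 616, 658 and 529.8 with siNT, 177, 413 and 304 with miR-28, and 240.1, 281.6 and 328 with miR-708. All mimic libraries were below siNT, and the miR-28 libraries spread over the widest range, with replicate 1 lowest. The fall was 1.09 on the log2 scale with each mimic (standard error 0.26 for each, adjusted p = 0.00575 and 0.00371, limma), so that it decreased by 53.0%, and both calls held under every alternative tried.

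CDK4 (chr12:57747727-57756013, minus strand) and CDK6 (chr7:92604921-92836573, minus strand) are the kinases that D-type cyclins activate. In MCF10A, CDK4 was measured at 1797, 2285 and 2135 with siNT, 1572, 2000.3 and 2353 with miR-28, and 1991, 2179 and 2635 with miR-708. The groups overlapped, with log2 fold changes of -0.08 (-0.42 to 0.26) and 0.13 (-0.21 to 0.47). In hTERT RPE-1, by contrast, CDK4 had scaled counts of 2374, 2309 and 2261 with siNT, 3826, 2771 and 3668 with miR-28, and 3922, 3505 and 3593 with miR-708. Each mimic library was above every siNT library. CDK4 rose there by 0.55 (standard error 0.12, adjusted p = 0.00303, limma) and 0.66 (standard error 0.12, adjusted p = 0.000551, limma) on the log2 scale.

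CDK6 in MCF10A had scaled counts of 7032, 5515 and 6378 with siNT, 8564, 6220.4 and 5761 with miR-28, and 5286, 4784 and 5007 with miR-708. The miR-708 libraries lay below all others, and replicate 7 with miR-28 lay above all others. With miR-28 the log2 fold change was 0.10 (-0.21 to 0.42). With miR-708 it was -0.32 (-0.64 to -0.01) and missed the threshold (adjusted p = 0.108, limma), but it passed with the replicate block (adjusted p = 0.0305, limma) and without miR-28 replicate 7, a library of neither group (adjusted p = 0.0311, limma).

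In hTERT RPE-1, CDK6 went from 7054, 7865 and 8370.5 with siNT to 18253, 14009.8 and 17774 with miR-28 and to 11009, 10050.3 and 11404 with miR-708. The groups were fully separated, with miR-28 highest. CDK6 rose by 1.10 on the log2 scale with miR-28 (2.14-fold, standard error 0.12, adjusted p = 4.78e-05, limma) and by 0.48 with miR-708 (1.40-fold, standard error 0.12, adjusted p = 0.00467, limma). Of the 10 genes, CDK6 had the largest rise with miR-28 in that line.

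CCNE1 (chr19:29811991-29824312, plus strand) encodes cyclin E1, the partner of CDK2. It had the lowest fitted change of the 10 with miR-708 in each line. Its scaled counts in MCF10A were 297, 470.3 and 413 with siNT, 237, 189.9 and 187 with miR-28, and 245, 143 and 174 with miR-708. Neither mimic group overlapped siNT. CCNE1 fell by 0.92 (standard error 0.23, adjusted p = 0.0152, limma) and by 1.08 (standard error 0.23, adjusted p = 0.00434, limma) on the log2 scale. The first call was lost without siNT replicate 8 or 9, or without miR-28 replicate 8 or 9 (adjusted p from 0.0520 to 0.0641, limma), with log2 fold changes from -0.87 to -0.78.

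In hTERT RPE-1, CCNE1 was low in all libraries, at 139.9, 125 and 101 with siNT, 76.3, 45.9 and 59.4 with miR-28, and 41.6, 36.1 and 38.3 with miR-708. The 3 groups did not overlap, and miR-708 was lowest. The fall was 1.02 (standard error 0.22, adjusted p = 0.00399, limma) with miR-28 and 1.62 (standard error 0.22, adjusted p = 0.000115, limma) with miR-708, so that it decreased by 50.5% with the former and decreased by 67.5% with the latter. Both calls held under every alternative tried.

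CCNE2 (chr8:94879770-94896678, minus strand) encodes cyclin E2. In MCF10A it was measured at 276, 379 and 324 with siNT, 301, 198 and 148 with miR-28, and 241, 204 and 167 with miR-708. The miR-28 libraries overlapped siNT and the miR-708 libraries did not. The log2 fold changes were -0.65 (-1.19 to -0.10, adjusted p = 0.0816) and -0.68 (-1.22 to -0.14, adjusted p = 0.0545), short of the threshold (limma). Both passed with the replicate block (adjusted p = 0.0349 and 0.0214, limma). The first also passed without miR-28 replicate 7 (-0.92, adjusted p = 0.0141, limma), and the second passed without miR-28 replicate 7 or 9 or miR-708 replicate 7 (adjusted p from 0.0189 to 0.0399, limma).

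In hTERT RPE-1 cells, the scaled counts of CCNE2 were 115, 93.2 and 79.7 with siNT, 62.5, 111 and 77.1 with miR-28, and 112, 116 and 170.3 with miR-708. Both mimic groups overlapped siNT. Its log2 fold change was -0.22 (-0.78 to 0.34) with miR-28 and 0.45 with miR-708 (-0.11 to 1.01, adjusted p = 0.142, limma), and the second passed under library size scaling at 0.77. The E-type cyclins therefore had fitted changes of opposite sign with miR-708 in this line, of which that of CCNE1 alone passed the threshold, and the difference between the genes was not tested.

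CDK2 (chr12:55966781-55972789, plus strand) is the kinase of cyclin E. Its scaled counts in MCF10A were 862, 993 and 778 with siNT, 885, 984 and 1053 with miR-28, and 1165, 1055 and 1305 with miR-708. The miR-708 libraries were above all others, while miR-28 overlapped siNT. CDK2 rose by 0.42 on the log2 scale with miR-708 (standard error 0.12, adjusted p = 0.0223, limma), a call lost without siNT replicate 7 or 9 or miR-708 replicate 9 (adjusted p from 0.0592 to 0.0946, limma). With miR-28 the change was 0.15 (-0.12 to 0.42).

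In hTERT RPE-1, CDK2 had scaled counts of 1023, 897 and 822 with siNT, 753, 1077 and 897 with miR-28, and 1412, 1176 and 1669 with miR-708. Again only miR-708 was separated from siNT. CDK2 rose by 0.63 with it (standard error 0.16, adjusted p = 0.00543, limma), and the change with miR-28 was -0.02 (-0.37 to 0.33). CDK2 overlaps PMEL on the opposite strand, and whether reads were counted by strand is not given in the sources used here. In siNT replicate 3, where PMEL stood at 544, CDK2 was the lowest of the 3 siNT libraries. Whether reads of PMEL entered the CDK2 values was not tested, and 1 library cannot show it. CCND1, CCNE2 and CDK4 likewise overlap LTO1, INTS8 and TSPAN31 on the opposite strand.

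CDKN1B (chr12:12685498-12722369, plus strand) encodes p27, an inhibitor of cyclin E-CDK2. In MCF10A its scaled counts were 1107, 1138 and 1293 with siNT, 1372, 1644 and 1513 with miR-28, and 1914, 1703 and 1784 with miR-708. The 3 groups did not overlap, with siNT lowest and miR-708 highest. CDKN1B rose by 0.36 on the log2 scale with miR-28 (standard error 0.10, adjusted p = 0.0305, limma) and by 0.61 with miR-708 (1.53-fold, standard error 0.10, adjusted p = 0.00126, limma). The first call was lost without siNT replicate 7 or 8 or miR-28 replicate 8 or 9 (adjusted p from 0.0747 to 0.121, limma) and with a spread fitted without a trend (adjusted p = 0.0586, limma).

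In hTERT RPE-1, CDKN1B was measured at 2119, 2361 and 3377 with siNT, 3385, 2859 and 3504 with miR-28, and 2947, 3055 and 2869 with miR-708. The highest siNT value came from replicate 3, the library with high PMEL and TYRP1, and it overlapped both mimic groups. With all libraries the log2 fold changes were 0.33 (-0.00 to 0.67, adjusted p = 0.0940, limma) and 0.20 (-0.13 to 0.54, adjusted p = 0.265, limma). Without siNT replicate 3 they were 0.53 (adjusted p = 0.00331, limma) and 0.40 (adjusted p = 0.00872, limma), and both passed the threshold, as they did under library size scaling (0.42 and 0.52). The part of that library's state in the difference was not tested.

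RB1 (chr13:48303744-48599436, plus strand) encodes the retinoblastoma protein and RBL1 (chr20:36996349-37095997, minus strand) encodes p107. RB1 in MCF10A had scaled counts of 3685, 3467 and 3805 with siNT, 4231, 4314 and 4139.6 with miR-28, and 4288, 3895 and 4134 with miR-708. All mimic libraries were above siNT, though the log2 fold changes of 0.21 (0.03 to 0.39, adjusted p = 0.0873) and 0.17 (-0.01 to 0.35, adjusted p = 0.141) did not pass the threshold (limma). Both passed under library size scaling, at 0.32 and 0.31, and under quantile scaling. In hTERT RPE-1, RB1 was measured at 4286, 4309 and 5025 with siNT, 5686, 6180.4 and 5617 with miR-28, and 6141, 6155 and 6732 with miR-708. The mimic libraries were again above siNT, whose replicate 3 was the highest of its group. RB1 rose by 0.36 (standard error 0.09, adjusted p = 0.00727, limma) and 0.49 (standard error 0.09, adjusted p = 0.000814, limma) there.

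In MCF10A, RBL1 had scaled counts of 964, 959.9 and 999 with siNT, 1091, 1003 and 962 with miR-28, and 975, 930.3 and 921 with miR-708. The groups overlapped. Its log2 fold changes there were 0.06 (-0.14 to 0.26) and -0.05 (-0.25 to 0.15). In hTERT RPE-1 the scaled counts were 516, 391 and 404 with siNT, 585, 849.7 and 573 with miR-28, and 1205, 1076 and 1412 with miR-708. The groups were fully separated, and miR-708 was highest. RBL1 rose by 0.60 with miR-28 (standard error 0.17, adjusted p = 0.0156, limma) and by 1.49 with miR-708 (2.82-fold, standard error 0.17, adjusted p = 3.31e-05, limma). The first call was lost without siNT replicate 2 (adjusted p = 0.0591, limma) or siNT replicate 3 (adjusted p = 0.0502, limma).

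**Figure D2:**
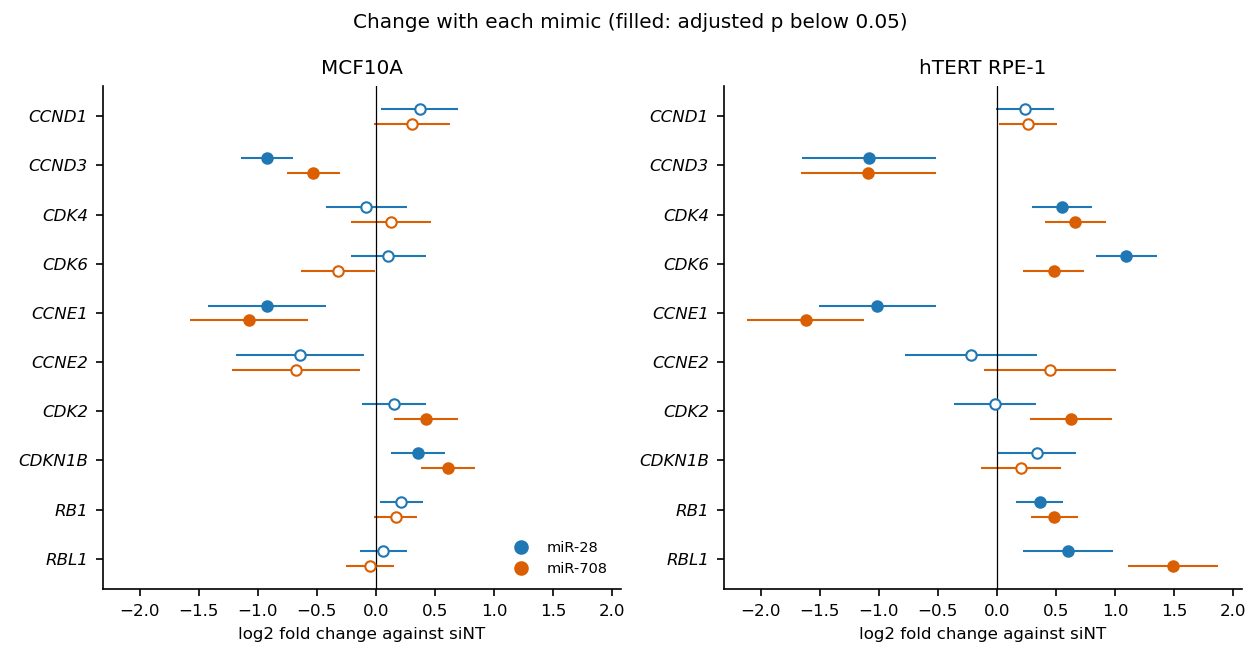
Log2 fold changes of the 10 genes against siNT with 95% confidence intervals, with miR-28 in blue and miR-708 in orange. Filled points passed an adjusted p of 0.05. CCND3 and CCNE1 are filled and left of 0 in all 4 comparisons, and RBL1 reaches 1.49 with miR-708 in hTERT RPE-1.

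The siblings were then compared directly with each other at the same dose and time, for the 10 genes in each line. In MCF10A none of the 10 passed the threshold, where 1.55% of all genes did (228 of 14726, 1.28% higher with miR-708 and 0.265% lower), while 2320 genes and 3 of the 10 had an unadjusted p under 0.05 (limma). The libraries did not overlap for 4 of the 10, against 20% of all genes. For CCND3 the miR-708 libraries were all higher, by 0.39 on the log2 scale (0.17 to 0.62, adjusted p = 0.0995, limma), and for CDK6 all lower (-0.43, -0.74 to -0.11, adjusted p = 0.197, limma). CDKN1B differed by 0.26 (0.03 to 0.48, adjusted p = 0.264, limma). The intervals of the other 7 reached at most 0.66 on either side of 0, which leaves room for differences up to that size.

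In hTERT RPE-1 cells, 3 of the 10 differed between the siblings, where 21.2% of all genes did (9.88% higher with miR-708 and 11.4% lower). The libraries did not overlap for 5, against 38.7% of all genes. With miR-708, RBL1 was higher by 0.89 (standard error 0.17, adjusted p = 0.00596, limma), CDK2 was higher by 0.64 (standard error 0.16, adjusted p = 0.0169, limma) and CDK6 was lower (-0.62, standard error 0.12, adjusted p = 0.00569, limma). None of these 3 had overlapping libraries. The CDK2 call was lost without miR-708 replicate 1 or 3 or miR-28 replicate 3 (adjusted p from 0.0531 to 0.0740, limma). The E-type cyclins differed in opposite directions without passing the threshold, CCNE1 by -0.61 (-1.10 to -0.11, adjusted p = 0.0799, limma) and CCNE2 by 0.67 (0.11 to 1.23, adjusted p = 0.0834, limma). Both passed without miR-28 replicate 2, at -0.79 (adjusted p = 0.0256, limma) and 0.90 (adjusted p = 0.0206, limma). Without it, 5 of the 10 were called, when 4084 of all 14469 genes were. That library lay furthest towards the miR-708 values of its group for RBL1, CDK2, CDK6, CCNE1 and CCNE2. Under library size scaling, which moved the median of all genes by 0.23, 6 of the 10 were called, with CCNE2, CDK4 and RB1 added. That scaling called 4650 of all 14527 genes, against 3084 as reported. For CCND3, which fell with both, the interval of the difference was -0.57 to 0.57.

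**Figure D3:**
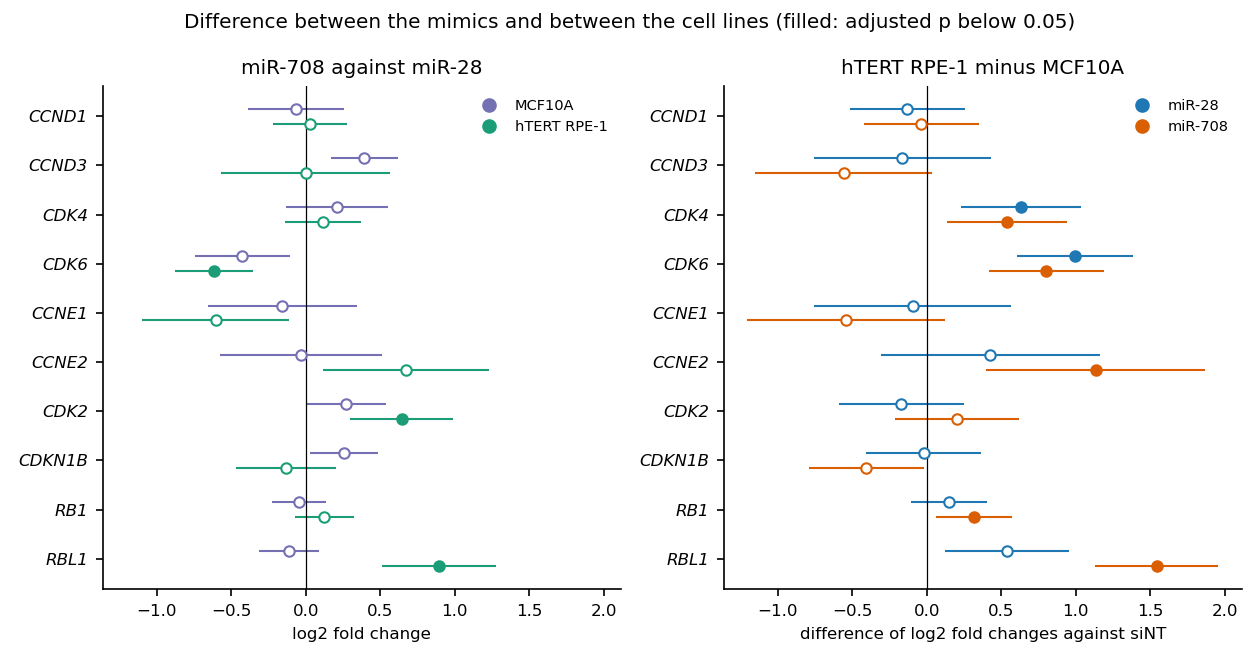
Left, log2 fold change of miR-708 against miR-28 in each line. Right, difference between the lines in the log2 fold change against siNT, hTERT RPE-1 minus MCF10A. Bars are 95% confidence intervals and filled points passed an adjusted p of 0.05. The filled points on the left are CDK2, CDK6 and RBL1 in hTERT RPE-1, and all filled points on the right are above 0.

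The tables of the lines were scaled separately, so the lines were compared only through their changes against siNT. With miR-28, 2 of the 10 responses differed, where 23.4% of 13339 genes did (12.1% higher in hTERT RPE-1 and 11.3% lower). They were CDK6, whose change was the higher in hTERT RPE-1 by 0.99 (standard error 0.19, adjusted p = 0.000822, limma), and CDK4, higher by 0.63 (standard error 0.19, adjusted p = 0.0232, limma). The CDK4 difference was lost without MCF10A miR-28 replicate 7 or MCF10A siNT replicate 8 or 9 (adjusted p from 0.0611 to 0.0710, limma), with quantile scaling (adjusted p = 0.0569, limma) and without a trend (adjusted p = 0.0553, limma). RBL1 differed by 0.54 (0.12 to 0.95, adjusted p = 0.0568, limma) and passed without MCF10A miR-28 replicate 7 or without hTERT RPE-1 siNT replicate 1, miR-28 replicate 1 or miR-28 replicate 3 (adjusted p from 0.0366 to 0.0465, limma).

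With miR-708, 5 of the 10 responses differed between the lines, where 39.8% of genes did (20.2% higher in hTERT RPE-1 and 19.6% lower), and all 5 were higher in hTERT RPE-1. The difference was 1.54 for RBL1 (standard error 0.20, adjusted p = 1.56e-05, limma), 1.13 for CCNE2 (standard error 0.35, adjusted p = 0.0142, limma) and 0.80 for CDK6 (standard error 0.19, adjusted p = 0.00178, limma). For CCNE2 it arose from -0.68 in MCF10A against 0.45 in hTERT RPE-1, neither of which passed alone. CDK4 differed by 0.54 (adjusted p = 0.0327, limma) and RB1 by 0.32 (adjusted p = 0.0438, limma). The CDK4 difference was lost without any 1 of 6 libraries (MCF10A siNT replicates 8 and 9, MCF10A miR-708 replicates 7 and 8, hTERT RPE-1 siNT replicate 2 and hTERT RPE-1 miR-708 replicate 1), with values from 0.45 to 0.54. The RB1 difference was lost in 11 of the 18 fits that left out 1 library, with values from 0.27 to 0.34 and adjusted p up to 0.117 (limma). It held without MCF10A siNT replicate 8, miR-28 replicate 7 or 9 or miR-708 replicate 7, and without hTERT RPE-1 siNT replicate 3 or miR-28 replicate 1 or 2. CCND3 and CDKN1B differed by -0.56 (-1.15 to 0.03, adjusted p = 0.125, limma) and -0.41 (-0.79 to -0.02, adjusted p = 0.0861, limma). CCND3 passed without hTERT RPE-1 miR-28 replicate 1, a library of neither group (adjusted p = 0.0228, limma), and CDKN1B passed without hTERT RPE-1 siNT replicate 1 (-0.55, adjusted p = 0.0272, limma). The CCNE1 responses differed by -0.09 (-0.76 to 0.57) with miR-28 and by -0.54 (-1.21 to 0.12) with miR-708.

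Levels can be set side by side between genes only per kb of transcript, here the canonical GENCODE 44 transcript. With siNT, MCF10A had 1548 ± 255 scaled counts per kb of CCND1, 1111 ± 134 of CDK4, 766 ± 36.0 of RB1 and 541 ± 65.2 of CDK6 (mean ± SD, n = 3 each). CDK6, CCND3 and CDKN1B followed each other with overlapping ranges, and CDK2 came next at 392 ± 48.4. CCNE1 and RBL1 overlapped at 201 ± 45.2 and 171 ± 3.77, and CCNE2 was lowest at 122 ± 19.3. In hTERT RPE-1 with siNT, CCND1 stood at 6019 ± 364, and CDK4, CDKN1B and RB1 followed with 1241 ± 30.5, 1086 ± 277 and 952 ± 88.0, where neighbours in this order overlapped. CDK6, CDK2 and CCND3 followed without overlap, RBL1 and CCNE1 overlapped at 76.9 ± 12.1 and 62.4 ± 9.95, and CCNE2 was again lowest at 35.9 ± 6.69.

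Within a library, the balance between related genes moved with the mimics. The ratio of CCND1 to CCND3 per kb was 3.50, 3.31 and 2.29 with siNT in MCF10A, 7.14, 6.94 and 7.88 with miR-28, and 6.81, 4.81 and 4.57 with miR-708. In hTERT RPE-1 it was 21.1, 18.3 and 21.8 with siNT, against 37.4–79.4 with miR-28 and 46.7–61.4 with miR-708. No mimic library overlapped siNT in either line. The ratio of CDK6 to CDK4 in hTERT RPE-1 was 0.475, 0.545 and 0.592 with siNT, 0.763, 0.808 and 0.775 with miR-28 and 0.449, 0.458 and 0.507 with miR-708, so that only miR-28 was separated from siNT. The ratio of RBL1 to RB1 in that line was 0.0673–0.101 with siNT, 0.0856–0.115 with miR-28 and 0.147–0.176 with miR-708, the last of which did not overlap the others. In MCF10A it was 0.219, 0.232 and 0.220 with siNT, 0.216, 0.195 and 0.195 with miR-28, and 0.191, 0.200 and 0.187 with miR-708, so that no mimic library reached siNT. The ratio of CCNE1 to CCNE2 in hTERT RPE-1 was 1.66–1.83 with siNT and 0.308–0.507 with miR-708, while with miR-28 it ran from 0.564 to 1.67. In MCF10A it was 1.47–1.74 with siNT, 0.959–1.43 with miR-708 and 1.08–1.74 with miR-28, and only miR-708 did not overlap siNT. These ratios show unequal change between related genes and were not tested.

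**Figure D4:**
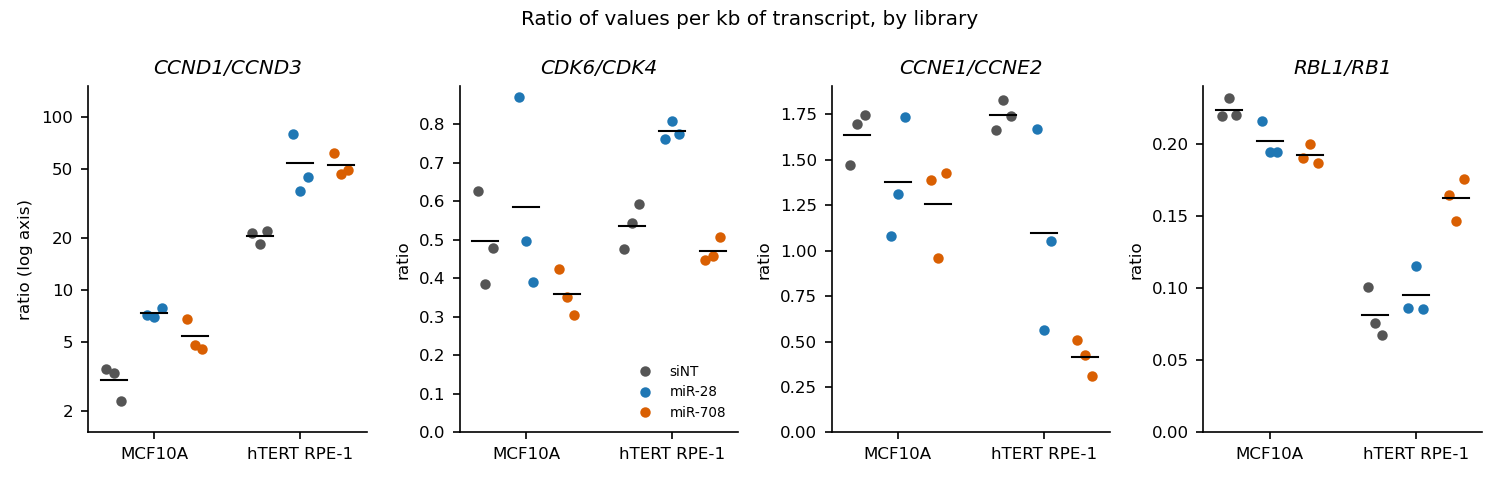
Ratios between related genes in each library, from scaled counts per kb of transcript, in MCF10A and hTERT RPE-1, with points for libraries and bars for group means. The CCND1 to CCND3 ratio is on a log axis and is above siNT in every mimic library, and the RBL1 to RB1 ratio is separated from siNT with miR-708 in hTERT RPE-1.

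A further 48 genes of the G1/S transition were read beside the 10, from 5 lists of CDK inhibitors, cyclin-CDK partners and regulators, E2F and DP factors, the MuvB core and E2F-driven S phase genes. All 48 were tested in hTERT RPE-1, and 46 in MCF10A, where CDKN2A and CDKN2B were not listed. In MCF10A, 12 of 46 changed with miR-28 (2 rose and 10 fell) and 15 of 46 with miR-708 (2 rose and 13 fell). In hTERT RPE-1, 16 of 48 changed with miR-28 (11 rose and 5 fell) and 35 of 48 with miR-708 (28 rose and 7 fell). The shares were 26.1%, 32.6%, 33.3% and 72.9%, against 22.7%, 32.8%, 46.8% and 62.1% of all genes. In MCF10A with miR-28 the count was 7 without a trend, 6 without siNT replicate 8 or miR-28 replicate 8 and 7 without siNT replicate 9, and with miR-708 it was 8 without siNT replicate 9 or miR-708 replicate 9 and 9 without miR-708 replicate 8. In the same order, the calls over all genes with miR-28 were 2666, 2113, 1949 and 2099, against 3347 as reported. With miR-708 they were 3639, 3174 and 3421, against 4835. Scaling by library size turned the 2 higher and 13 lower calls with miR-708 into 6 higher and 6 lower.

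Of the 17 S phase genes, 6 fell with miR-28 and 7 with miR-708 in MCF10A (35.3% and 41.2% called, against 22.7% and 32.8% of all genes), and none rose, though 1 was called higher with miR-708 under library size scaling. MCM6, a subunit of the replicative helicase, fell by 0.75 and 0.83 on the log2 scale, POLA1, of DNA polymerase alpha, by 0.49 and 0.83, and MYBL2, a transcription factor of cycling cells, by 0.76 and 0.997, with miR-28 first. The MYBL2 call with miR-28 was lost without siNT replicate 8 or miR-28 replicate 8. In hTERT RPE-1, 3 rose and 1 fell with miR-28, and 13 rose and 1 fell with miR-708. The share called was 23.5% with miR-28, below the 46.8% of all genes, and 82.4% with miR-708, where 62.1% of all genes were called. CDT1, a licensing factor of replication origins, rose by 1.20 and 2.31, PCNA, the sliding clamp of DNA polymerases, by 1.30 and 1.48, and CDC6, which loads the helicase, by 0.62 and 1.49. MYBL2 was the 1 that fell, by 1.13 and 0.53, and its call with miR-708 was lost under 7 of 17 alternatives, 5 of them without 1 library (siNT replicate 1 or 3, miR-708 replicate 1 or 2 or miR-28 replicate 3). That of CDC6 with miR-28 was also lost under 7, 5 of them without 1 library (siNT or miR-28 replicate 2 or 3 or miR-708 replicate 1). Tested between the lines, 14 of the 17 responses to miR-708 were higher in hTERT RPE-1 and none lower, where 20.2% of all genes were higher and 19.6% lower. The median difference was 1.12 against -0.02 over all genes. With miR-28, 5 of the 17 were higher and none lower (29.4% called, against 23.4% of all genes). The median difference with miR-28 was 0.49 against -0.01 over all genes.

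**Figure D5:**
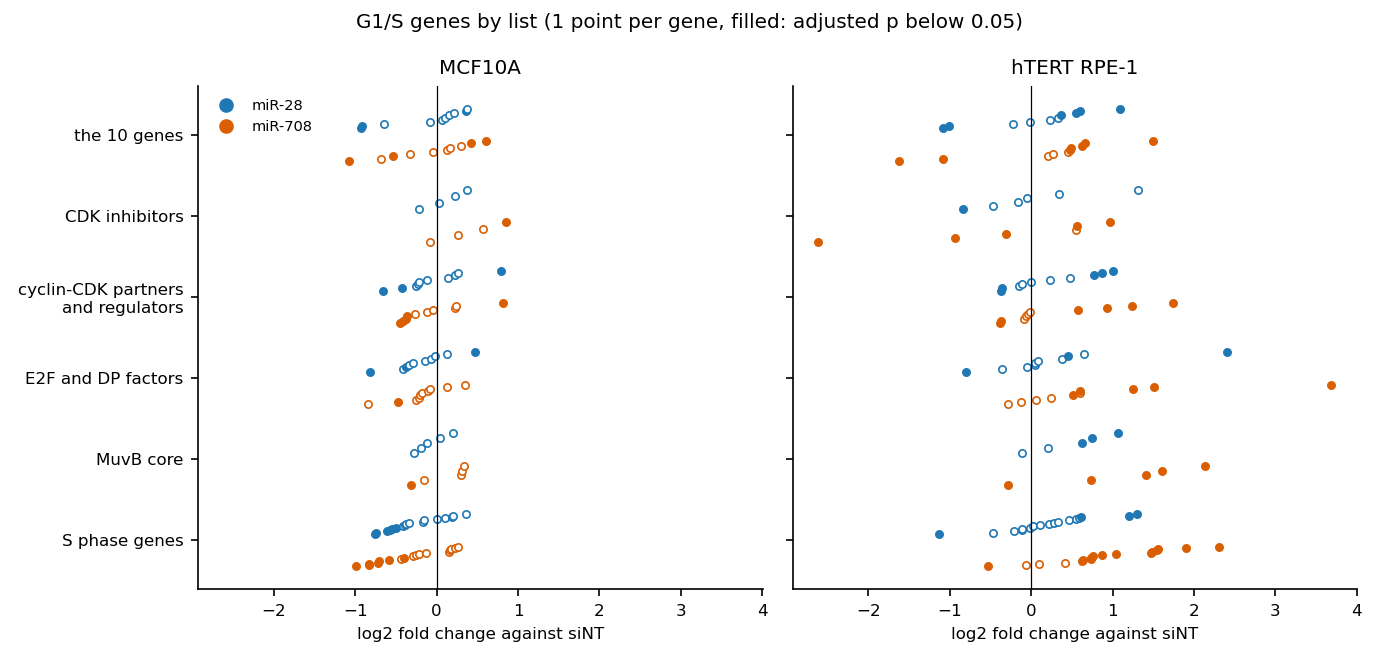
Log2 fold changes against siNT of the 10 genes and of the 48 other G1/S genes by list, with 1 point per gene, miR-28 in blue and miR-708 in orange. Filled points passed an adjusted p of 0.05. The S phase genes called in MCF10A are all left of 0, which under library size scaling held for all but 1, and 13 of 14 called with miR-708 in hTERT RPE-1 are right of it.

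Among the E2F factors, E2F7, a repressor that E2F itself induces, rose most. It went from 544 ± 122 with siNT to 2918 ± 811 with miR-28 and 6937 ± 554 with miR-708 in hTERT RPE-1 (mean ± SD, n = 3 each), by 2.41 and 3.69 on the log2 scale (adjusted p = 7.13e-06 and 2.32e-07, limma). In MCF10A it rose by 0.48 with miR-28, a call lost without any 1 of the 3 siNT and 3 miR-28 libraries. E2F5 rose by 0.46 and 0.51 in hTERT RPE-1, the first of which was lost without siNT replicate 1. E2F6, also a repressor, was the 1 factor that moved apart between the siblings in both lines. It fell with miR-28, by 0.82 in MCF10A and 0.80 in hTERT RPE-1, and with miR-708 it rose by 0.60 in hTERT RPE-1 and did not pass in MCF10A (0.13, -0.15 to 0.41). Compared directly, E2F6 was higher with miR-708 by 0.95 in MCF10A (adjusted p = 0.00186, limma) and 1.40 in hTERT RPE-1 (adjusted p = 0.000183, limma). In MCF10A, E2F4 fell by 0.38 and 0.47, and its first call was lost under 10 of 17 alternatives, 6 of them without 1 library (replicate 8 or 9 of any group). The second was lost without siNT replicate 9 and under library size scaling (-0.33).

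The MuvB core joins RBL1 and RBL2 in a complex that represses cell cycle genes. In hTERT RPE-1, 3 of its 5 members rose with miR-28 and 4 rose and 1 fell with miR-708, where LIN9 rose by 2.13, LIN54 by 1.61 and LIN52 by 1.41 on the log2 scale. Of all genes, 46.8% and 62.1% were called in these comparisons. The 1 that fell was RBBP4, also a subunit of chromatin complexes, whose call was lost under library size and quantile scaling, without a trend, and without siNT replicate 1 or 3 or miR-708 replicate 2 or 3. In MCF10A none was called with miR-28 and only RBBP4 with miR-708, which fell by 0.32, a call lost under library size and quantile scaling and without replicate 8 or 9 of siNT or miR-708. RBL2, the third RB family gene, fell with miR-708 by 0.45 in MCF10A and 0.37 in hTERT RPE-1, opposite to RBL1 in the latter line, where the call of RBL2 was lost under library size scaling (-0.05).

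Of the CDK inhibitors other than CDKN1B, CDKN2B (p15) fell by 0.84 with miR-28 in hTERT RPE-1 and fell by 2.62 with miR-708, from 6242 ± 1642 to 3452 ± 639 and 1028 ± 318 (mean ± SD, n = 3 each). The first of these calls was lost without siNT replicate 2 or miR-28 replicate 3. CDKN1A (p21) fell by 0.93 with miR-708 in that line (adjusted p = 2.23e-05, limma), and its change with miR-28 was -0.16 (-0.39 to 0.06). In MCF10A the changes of CDKN1A were 0.22 (0.00 to 0.44, adjusted p = 0.131, limma) and -0.09 (-0.31 to 0.14). Over the list, 1 of 6 fell with miR-28 in hTERT RPE-1, 3 fell and 2 rose with miR-708, and in MCF10A 0 and 1 of 4 were called, where the shares of all genes called were 46.8% and 62.1% in hTERT RPE-1 and 22.7% and 32.8% in MCF10A. Under library size or quantile scaling, 2 and not 3 fell with miR-708 in hTERT RPE-1. The 1 called in MCF10A was CDKN2C, which rose by 0.85, and this call was lost without a trend and without siNT replicate 7 or 9 or miR-708 replicate 8 or 9.

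Among the regulators, FBXW7, which targets cyclin E for degradation, rose in all 4 comparisons, in MCF10A by 0.79 and 0.82, and in the other line by 0.87 and 0.93. CKS1B, which helps SKP2 to mark p27 for degradation, rose by 0.77 and 1.74 in hTERT RPE-1. SKP2 itself fell by 0.42 and 0.37 in MCF10A, calls that were lost under 7 and 8 of 17 alternatives, without replicate 8 or 9 of siNT or the mimic among them, and the second also without miR-28 replicate 8. In hTERT RPE-1, SKP2 rose by 0.57 with miR-708 (adjusted p = 0.00143, limma), and its change with miR-28 was 0.23 (-0.03 to 0.48). The responses of SKP2 were higher in that line by 0.65 with miR-28 (adjusted p = 0.00980, limma) and 0.94 with miR-708 (adjusted p = 0.000211, limma), and both differences kept their call under all 26 alternatives. CDK7, of the CDK-activating kinase, fell in MCF10A by 0.66 and 0.41, and the second call was lost without siNT replicate 7 or 9 or miR-708 replicate 8 or 9 and under library size scaling (-0.27). MNAT1, its assembly factor, fell in hTERT RPE-1 by 0.36 and 0.38, the second of which was lost under library size scaling (-0.06).

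Of the genes with a mean scaled count of at least 100 in both lines, the one whose log2 values followed each of the 10 most closely was found by the mean of its Pearson correlations over the 9 libraries of each line. These libraries share treatment groups and scaling, so the correlations are given as descriptions only. The closest of 10233 genes was LRRCC1 for RBL1 (mean r = 0.95), CNOT6 for RB1 (0.95), TMEM268 for CCND3 (0.94), LSM10 for CDK4 (0.93), MBNL1 for CDK6 (0.92), ESCO2 for CCNE2 (0.92), SHCBP1 for CDK2 (0.92), ZNF226 for CDKN1B (0.89) and VANGL1 for CCND1 (0.89). CCNE1 did not reach the level needed in hTERT RPE-1.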

How the data were processed

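PolyA+ RNA of MCF10A and hTERT RPE-1 cells was sequenced in 3 biological replicates of each of 3 groups per line, mapped to groups by the labels. The authors aligned reads to hg38 with HISAT2 2.1.0, quantified RefSeq transcripts by expectation-maximisation in Partek Flow and deposited, for each line separately, signal values that are estimated counts divided by DESeq2 size factors. Whether the kit or the counting kept strand is not given in the sources used here. The tables also hold the authors' ratios, log2 ratios, p-values and false discovery rates between groups, which were not used.

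Values were tested as log2(value + 1) with limma 3.58.1 (empirical Bayes with trend, R 4.3.3) over the 9 libraries of a line, leaving out genes that did not reach 10 in 3 or more libraries. P-values were adjusted by Benjamini-Hochberg over all genes tested, at 0.05. Fold changes on this scale understate changes of low genes. The difference between lines is the difference of the fold changes, with Welch-Satterthwaite degrees of freedom. The test was checked on simulated data. Alternatives were library size and quantile scaling, pseudocounts of 0.5 and 5, no filter, no trend, fits of the compared groups alone, the replicate block and each library left out. Tables and figures were made in Python 3.11.15 with pandas 2.3.3 and matplotlib 3.10.9.

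Depth was estimated from the steps between low values, of which 81.0–84.6% lay within 0.05 of a whole multiple, so counts as such were not recovered. A floor of 3 reads corresponds to scaled counts of 2.35 to 4.40, for counting error only, since reads carried no molecular identifiers.

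Replicate numbers were taken to pair libraries where every same-numbered pair deviated together from its group mean across genes (r above 0.1). This held for the mimics against siNT in MCF10A (r from 0.11 to 0.30) and for the siblings in hTERT RPE-1 (0.13 to 0.28), not for the siblings in MCF10A (0.02 to 0.18) or the mimics against siNT in hTERT RPE-1 (0.02 to 0.15).

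The 10 genes and the 5 other lists were chosen with earlier results of these data known. All 10 are described. Of the other lists, up to 3 genes per list and line were named, those called with both mimics whose mean change was furthest from 0, beside CDKN1A and RPS28. RBL2, RBBP4 and CDKN2C were named after their values were seen. The most alike gene is that with the highest mean Pearson correlation of log2 values over the lines.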

Additional observations from a re-analysis of the deposited data

Results flagged for a closer look

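The following 7 responses among the 10 genes differed between hTERT RPE-1 and MCF10A when the difference itself was tested (limma fold changes, adjusted over 13339 genes), and in each the fold change was higher in hTERT RPE-1. With miR-28 these were CDK4 by 0.63 and CDK6 by 0.99 on the log2 scale. With miR-708 they were CCNE2 by 1.13, CDK4 by 0.54, CDK6 by 0.80, RB1 by 0.32 and RBL1 by 1.54. The CDK6, CCNE2 and RBL1 differences kept their call under every alternative tried, and those of CDK4 and RB1 did not. For CCNE2 the margin was narrow, with an adjusted p that rounded to 0.05 (limma) in 1 of the fits that left out a library.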

How the results depend on the processing

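Of 1540 fold changes of the 10 genes recomputed under alternatives, 1415 kept their direction and side of the threshold, 42 lost a call, 46 gained one and 37 changed sign, all 37 without a call. The falls of CCND3 in all 4 comparisons, of CCNE1 in all but that with miR-28 in MCF10A, and the rises of CDK4, CDK6 and RB1 in hTERT RPE-1 kept their calls throughout. The causes of the shifts below were not tested.

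Replicate numbers were taken to pair the mimic and siNT libraries in MCF10A. With the replicate block, 5 of the 10 genes were called with miR-28 and 7 with miR-708, against 3 and 4 without it. If numbers pair both mimics with siNT, they also pair the siblings, though same-numbered siblings in MCF10A did not all pass the rule for pairing (r from 0.02 to 0.18). Between the siblings in MCF10A the block gave 1 (CDK6) in place of 0. Over all genes it gave 643 in place of 228. In hTERT RPE-1 and between the lines the block changed no call of the 10.

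With miR-28 in MCF10A, 5 of the 10 were called under library size and under quantile scaling, 1 to 4 with 1 library left out, and of the other G1/S genes 7 without a trend and 6 to 14 with 1 library left out. The calls over all genes were 3435 under library size scaling, 2869 under quantile scaling, 2666 without a trend and 1949 to 3950 with 1 library left out. With miR-708 in MCF10A, 7 of the 10 were called under quantile scaling, and 8 to 20 of the other G1/S genes with 1 library left out. Over all genes these fits called 4552 and 3174 to 5483. Between the siblings in hTERT RPE-1, library size scaling gave 6 of the 10 and leaving out 1 library 2 to 5. Over all genes these fits gave 4650 and 1512 to 4084. Between the lines, quantile scaling gave 1 of the 10 with miR-28, no trend gave 1 and 3, and leaving out 1 library 1 to 3 and 3 to 6. In the same order, the calls over all genes were 2778, then 2735 and 5066, then 2287 to 3456 and 4619 to 5497.

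Signs turned under library size scaling for CDK4 with miR-28 (0.030) and RBL1 with miR-708 (0.095) in MCF10A, CDK2 with miR-28 in hTERT RPE-1 (0.068), CCND3 (0.23) and CDKN1B (0.10) between the siblings there, and CCND1 with miR-708 between the lines (0.14). Under quantile scaling they turned for the first of these (0.0070) and the last (0.42). Leaving out 1 library gave ranges across 0 in MCF10A for CDK4 (-0.22 to 0.073) and CDK6 (-0.068 to 0.22) with miR-28, and between the siblings for CCND1 (-0.22 to 0.017), CCNE1 (-0.37 to 0.019) and CCNE2 (-0.27 to 0.24). In hTERT RPE-1 it did so for CDK2 with miR-28 (-0.15 to 0.11), and between the siblings for CCND1 (-0.045 to 0.10), CCND3 (-0.33 to 0.28) and CDK4 (-0.030 to 0.20). Between the lines it did so with miR-28 for CCND1 (-0.22 to 0.010), CCND3 (-0.44 to 0.17), CCNE1 (-0.27 to 0.094) and CDKN1B (-0.16 to 0.18), and with miR-708 for CCND1 (-0.13 to 0.11).

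Library size scaling raised the share of higher calls among all genes from 47.1% to 66.1% and from 47.3% to 67.6% in MCF10A, from 49.9% to 59.4% and from 49.7% to 71.8% in hTERT RPE-1, from 46.5% to 84.8% between the siblings in hTERT RPE-1, and from 50.8% to 68.4% between the lines with miR-708. Under it the other G1/S genes called in MCF10A were 3 higher and 7 lower, and 6 higher and 6 lower. With 3 libraries per group, standard errors among the 10 were largest for CCND3 in hTERT RPE-1 (0.26) and for CCNE2 in both lines (0.25), and small changes of these are the least precise.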
